A study of Mus musculus with 10 samples.

Results

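The 10 genes described here are the Notch receptors Notch1, Notch2, Notch3 and Notch4, the ligands Jag1, Jag2, Dll1 and Dll4, and the target genes Hes1 and Hey1. They were taken by gene symbol from the platform annotation of an Affymetrix whole-transcript array. Each of the 10 had 1 probe set with exactly its symbol, so they are 10 of the 19938 genes in the table. RNA from 10 mouse thyroid tumours had been hybridised, each to its own array. In the 5 papillary thyroid carcinomas (PTC) TPOCreER, a Cre recombinase that tamoxifen activates and that thyroid cells make from the thyroid peroxidase promoter, was combined with a mutant Braf allele. The 5 anaplastic thyroid carcinomas (ATC) carried the same transgene and Braf allele and were also p53 -/-. All were on a mixed C57BL/6;129SvJae background, and the labels used here give no age. Tumour type and p53 genotype therefore cannot be told apart. The labels call the tumours biological replicates without saying that each came from a separate animal, so p-values measure only the spread between these samples.

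Notch receptors are transmembrane proteins that are activated by ligands on a neighbouring cell. Ligand binding exposes the receptor to an ADAM protease and then to gamma-secretase, and the freed intracellular domain enters the nucleus, where it joins the DNA-binding protein RBPJ and a Mastermind coactivator to switch on target genes. Without that domain RBPJ holds corepressors at the same sites. The best known targets encode the HES and HEY repressors, which are basic helix-loop-helix proteins. The pathway guides cell fate choices in many epithelia and the sprouting and arterial identity of blood vessels.

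Values are log2 probe set intensities, errors beside means are SDs over the n = 5 tumours of a group, and differences are ATC minus PTC with 95% intervals. Tests are limma fits over all 19938 genes, with Benjamini-Hochberg adjusted p-values and a threshold of 0.05. A level of one gene is not set against a level of another, since probe sets differ in brightness. The number of arrays limits the precision, and in whole tumour pieces fewer cells of a type and less RNA per cell cannot be told apart.

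Jag1 and Hes1 fell and Notch2 rose in ATC. Smaller falls were called for Notch3 and Dll1, and Notch1, Notch4, Jag2, Dll4 and Hey1 did not pass the test. That makes 1 member higher and 4 lower, or 5 of 10, beside 21.2% of all genes called in either direction (11.5% higher and 9.72% lower). In 4 of the 10, all 5 ATC values lay below all 5 PTC values, and in none did all ATC values lie above all PTC values; over all genes these arrangements took up 7.74% and 9.13%. The median difference over the 10 members was −0.054, beside −0.018 over all genes, and the median absolute difference was 0.14 for both. The members were chosen with earlier results of these data known, and their count was not tested against other genes.

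**Figure D1:**
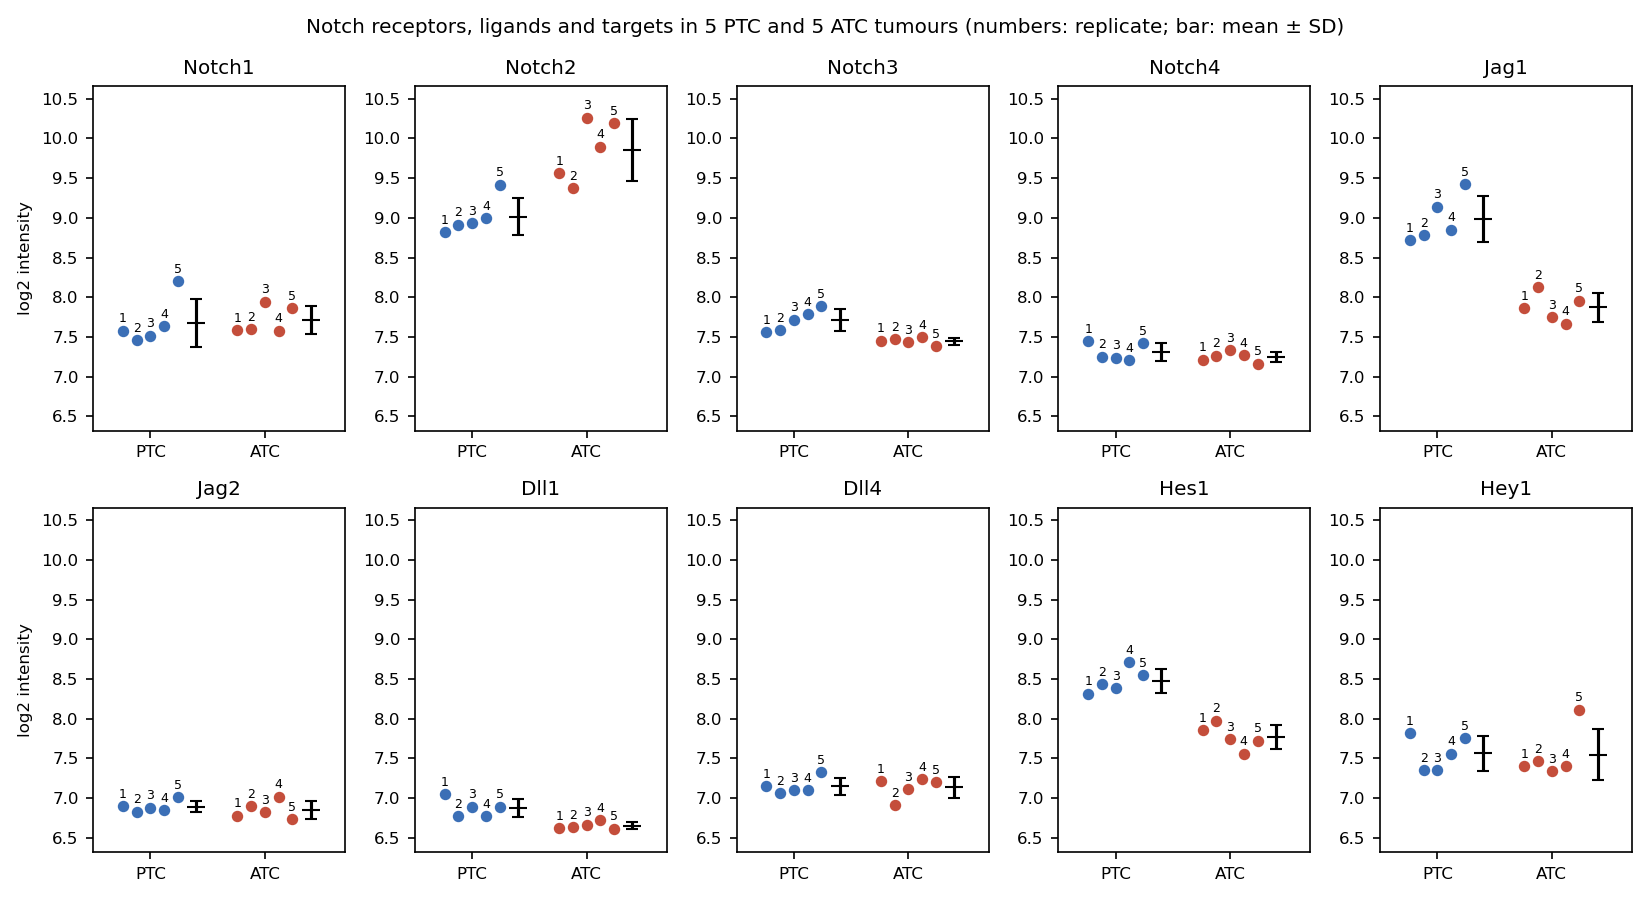
Log2 intensity (vertical axis, same scale in every panel) of the 10 Notch genes in the 5 PTC (blue) and 5 ATC (red) tumours; each numbered point is a tumour and the bar is the mean ± SD. The groups are apart for Jag1, Hes1, Notch3 and Dll1 and overlap in the other panels, and PTC replicate 5 is the highest PTC point in 6 of the 10 panels.

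The sequences just before the annotated starts of Jag1 and Notch2 are shown because these were the ligand and the receptor with the largest differences. That of Hey2, a further target gene described with the rest of the pathway, is shown as the target with the largest fall among those with a window. Each is 250 bases long, from RefSeq (GRCm38.p6), written 5′ to 3′ on the gene's strand. Jag1 is on the minus strand at chr2:137116521-137116770, Notch2 on the plus strand at chr3:98013288-98013537 and Hey2 on the minus strand at chr10:30842784-30843033, and all 3 lie directly upstream of the gene's first base. Capitals mark TGGGAA or its complement TTCCCA, the core recognised by RBPJ.
Jag1: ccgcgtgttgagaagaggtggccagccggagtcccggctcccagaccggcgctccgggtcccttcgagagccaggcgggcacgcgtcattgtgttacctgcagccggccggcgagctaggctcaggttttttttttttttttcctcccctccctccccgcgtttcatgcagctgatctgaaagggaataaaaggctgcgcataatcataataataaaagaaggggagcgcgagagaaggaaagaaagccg
Notch2: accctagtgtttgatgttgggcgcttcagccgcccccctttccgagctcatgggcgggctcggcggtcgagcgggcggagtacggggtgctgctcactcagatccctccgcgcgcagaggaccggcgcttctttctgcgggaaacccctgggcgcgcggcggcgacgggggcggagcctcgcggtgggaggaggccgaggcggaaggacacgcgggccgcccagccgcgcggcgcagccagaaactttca
Hey2: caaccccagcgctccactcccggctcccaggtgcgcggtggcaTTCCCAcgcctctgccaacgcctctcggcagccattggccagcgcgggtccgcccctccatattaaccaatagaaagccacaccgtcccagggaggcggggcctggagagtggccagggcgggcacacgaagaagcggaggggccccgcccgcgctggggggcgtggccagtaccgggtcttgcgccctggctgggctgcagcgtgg
A window was found for 8 of the 10 members (9 windows, since Dll1 has several starts). The target genes Hes1 and Hey1 had no window and were not searched, so the 9 are windows of receptors and ligands only. None of the 9 held TGGGAA on either strand, beside 21.6% of all 32851 windows of this length that did. The Hey2 match lay 207 to 202 bases before the start. Windows were also looked up for Rbpj, Myc, Dtx4, Nrarp, Heyl and Hes5, and not for the other named pathway genes. Hes5 had 2 matches, Rbpj had 2 and 1 in its windows, and Nrarp had 0, whereas Myc, Dtx4 and Heyl had no window. The Rbpj windows overlap, and the 1 match of the later window is also among the 2 of the earlier. CACGTG, an E box that HES and HEY proteins can bind, was likewise in 0 of the 9, against 6.02% of all windows. The N box CACNAG, another site that HES proteins can bind, was found on either strand in the windows of 4 members, Notch1, Notch2, Notch3 and Dll4, against 36.7% of all windows. Further HES sites were not searched, so a window without these motifs may still hold one. Matches of the 3 motifs may share bases. Jag1 upstream sequence was 57.2% G and C and that of Notch2 72.0%, with a median of 52.4% over all windows. A match describes letters in these windows and nothing about binding.

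Among the receptors, Notch2 alone rose. Notch2 encodes a receptor found in many tissues, including epithelia, mural cells and myeloid and B cells. It was at 8.82, 8.92, 8.93, 8.99 and 9.42 in PTC replicates 1 to 5 and at 9.56, 9.37, 10.26, 9.90 and 10.19 in ATC replicates 1 to 5. The ranges met only where PTC replicate 5 lay just above ATC replicate 2. The means were 9.02 ± 0.23 and 9.86 ± 0.39, a 1.79-fold difference (0.84, interval 0.45 to 1.23, adjusted p = 0.00641). The size of this difference exceeded that of 93.7% of all genes.

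Notch3, the receptor of pericytes and vascular smooth muscle, was at 7.56, 7.58, 7.72, 7.79 and 7.89 in PTC and at 7.45, 7.48, 7.44, 7.49 and 7.38 in ATC. Every ATC tumour was below every PTC tumour, and the ATC tumours were close together (SD 0.044 against 0.14 in PTC). Notch3 fell by 0.26 (interval −0.43 to −0.095, 1.20-fold, adjusted p = 0.0298). The threshold was missed when PTC tumour 3, 4 or 5 or ATC tumour 1, 3 or 5 was omitted (difference −0.26 to −0.21, with adjusted p from 0.0534 to 0.0754), and with arrays centred on their medians (−0.22, adjusted p = 0.0622).

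Notch1, the widely expressed receptor first known from T cell leukaemia, was at 7.58, 7.46, 7.52, 7.64 and 8.20 in PTC and at 7.59, 7.60, 7.94, 7.58 and 7.87 in ATC. The ranges overlapped, with the highest value of all in PTC replicate 5. The difference was 0.036 (interval −0.27 to 0.35, adjusted p = 0.894), and it was between −0.022 and −0.0025 when PTC tumour 2 or 3 or ATC tumour 3 or 5 was omitted. Without PTC replicate 5 it was 0.17 (adjusted p = 0.285). Notch4, a receptor made mainly by endothelial cells, ranged from 7.21 to 7.44 in PTC and from 7.17 to 7.33 in ATC, and differed by −0.064 (interval −0.22 to 0.091, adjusted p = 0.584).

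Among the ligands, Jag1 fell furthest. Jag1 encodes Jagged1, a membrane ligand of epithelial, endothelial and mural cells. It was at 8.72, 8.78, 9.14, 8.85 and 9.42 in PTC and at 7.86, 8.13, 7.75, 7.67 and 7.96 in ATC. A gap of more than the whole ATC range separated the highest ATC tumour, replicate 2, from the lowest PTC tumour, replicate 1. The means were 8.98 ± 0.29 and 7.87 ± 0.18, a 2.16-fold fall (−1.11, interval −1.42 to −0.80, adjusted p = 0.000396). This was the largest difference of the 10 members and exceeded that of 96.3% of all genes.

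Dll1, a Delta ligand best known from development and from marginal zone B cells, was at 7.05, 6.77, 6.89, 6.77 and 6.89 in PTC and at 6.62, 6.64, 6.67, 6.73 and 6.62 in ATC. All ATC tumours lay below all PTC tumours, by a narrow margin between ATC replicate 4 and PTC replicate 2. Dll1 fell by 0.22 (interval −0.38 to −0.070, 1.17-fold, adjusted p = 0.0413). The threshold was missed when PTC tumour 1, 3 or 5 or ATC tumour 1, 2, 3 or 5 was omitted (−0.23 to −0.18, with adjusted p from 0.064 to 0.091). It was also missed with arrays centred on their medians (−0.18, adjusted p = 0.0727) and after quantile normalization (−0.15, adjusted p = 0.107).

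Jag2 and Dll4 did not pass. Jag2, the second Jagged ligand, ranged from 6.83 to 7.01 in PTC and from 6.73 to 7.02 in ATC, with a difference of −0.043 (interval −0.20 to 0.11, adjusted p = 0.732). Dll4, the Delta ligand of arterial and sprouting endothelium, ranged from 7.06 to 7.33 in PTC and from 6.91 to 7.24 in ATC, with a difference of −0.013 (interval −0.20 to 0.17, adjusted p = 0.937). The sign of the Dll4 difference turned without PTC replicate 5 (0.032) or ATC replicate 2 (0.044). Jag2 and Dll4 both turned sign after quantile normalization. Notch4, Jag2, Dll1 and Dll4 were below the median of all gene means, and detection above background is not given in the files, so differences of these dim probe sets may be compressed.

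**Figure D2:**
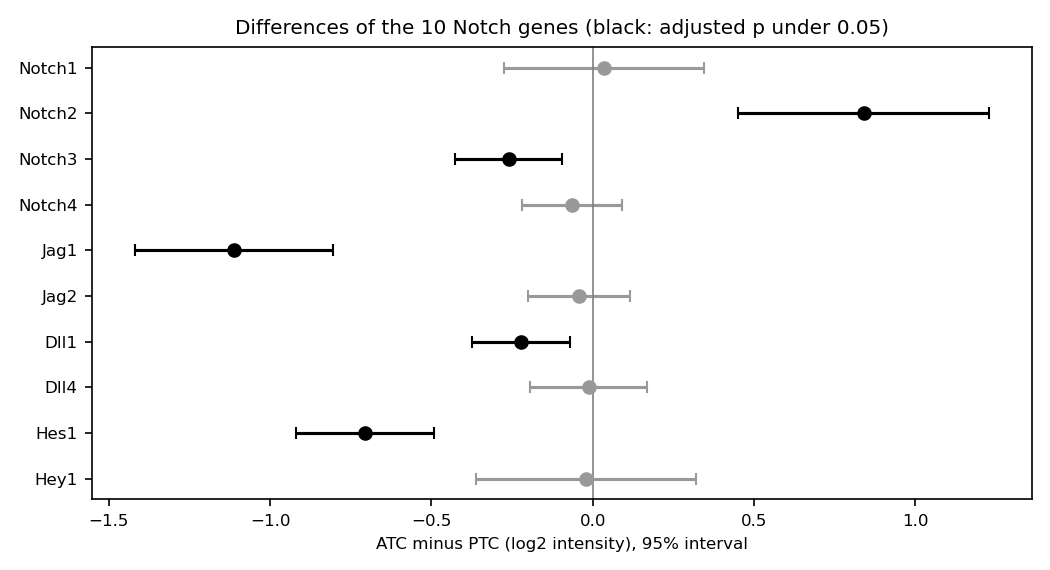
ATC minus PTC difference in log2 intensity (horizontal axis) of each Notch gene with its 95% interval from the limma fit, n = 5 tumours per group; black points passed the threshold and grey points did not. Jag1 (−1.11), Hes1 (−0.71) and Notch2 (0.84) stand furthest from 0, and the intervals of Notch1, Notch4, Jag2, Dll4 and Hey1 include 0.

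Of the target genes, Hes1 fell and Hey1 did not pass. Hes1 encodes a repressor that many epithelial progenitors use downstream of Notch. It was at 8.32, 8.43, 8.38, 8.71 and 8.55 in PTC and at 7.85, 7.98, 7.75, 7.56 and 7.72 in ATC, so every ATC tumour was below every PTC tumour. The means were 8.48 ± 0.15 and 7.77 ± 0.16, a 1.63-fold fall (−0.71, interval −0.92 to −0.49, adjusted p = 0.000647). ATC replicate 2 had the highest Hes1 and the highest Jag1 of the ATC tumours and the lowest Notch2.

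Hey1, a HEY repressor prominent in arterial endothelium, was at 7.82, 7.35, 7.35, 7.56 and 7.75 in PTC and at 7.40, 7.47, 7.34, 7.41 and 8.11 in ATC. Of the ATC tumours, replicate 5 was alone above the PTC range and the other 4 lay within or just below it. The difference was −0.021 (interval −0.36 to 0.32, adjusted p = 0.946). Its sign depended on single tumours: it was 0.013 to 0.043 when PTC tumour 1 or 5 or ATC tumour 1, 3 or 4 was omitted, and −0.16 without ATC replicate 5 (adjusted p = 0.350).

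The members also varied within a group. PTC replicate 5 had the highest PTC value for Notch1, Notch2, Notch3, Jag1, Jag2 and Dll4, 6 of the 10, and was the highest PTC array for 32.9% of all genes. It also had the highest endothelial marker mean of the PTC tumours (8.34 against 7.87 to 8.20) and the lowest macrophage mean (9.15 against 9.45 to 9.72). The SD was larger in PTC for 5 members and larger in ATC for the other 5, beside 68.6% of all genes with the larger SD in ATC. Without PTC replicate 5 and ATC replicate 5, which was tried after looking at the arrays, Notch2 remained higher and Jag1 and Hes1 lower, and the calls of Notch3 (−0.20, adjusted p = 0.086) and Dll1 (−0.21, adjusted p = 0.102) ended.

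Other genes of the pathway were described in 6 lists with 61 members, of which 57 were measured. Of these 6 rose, 4 fell and 47 did not pass, a share called of 17.5% beside the 21.2% of all genes. The median difference was −0.013.

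In the nuclear complex Rbpj rose. Of 13 measured genes for RBPJ and its coactivators and corepressors 3 rose and 1 fell (median 0.12), beside 21.2% of all genes called. Rbpj was at 9.90, 9.79, 9.87, 9.81 and 9.54 in PTC and at 11.14, 10.84, 10.81, 10.88 and 11.04 in ATC. No ATC tumour came near the PTC range, and the difference was 1.16 (interval 0.96 to 1.36, 2.23-fold, adjusted p = 3.38e-05). A second Rbpj probe set differed by 1.73 (SE 0.27, adjusted p = 0.00125 over all probe sets). Rbpj has pseudogenes in the mouse, and the probe sets were not checked for signal from them. Kat2a, an acetyltransferase coactivator, rose by 0.57 (SE 0.11, adjusted p = 0.0045) and its paralog Kat2b fell by 0.67 (SE 0.17, adjusted p = 0.0152). Cir1, an RBPJ corepressor, rose by 0.28 (SE 0.079, adjusted p = 0.0275). The Cir1 call was lost on omitting tumour 1 or 4 of either type (0.24 to 0.26, with adjusted p from 0.0539 to 0.0711). It was also lost after quantile normalization (0.19, adjusted p = 0.104). The Mastermind genes Maml1, Maml2 and Maml3 differed by 0.076, −0.13 and 0.31 and did not pass.

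Of 13 further target genes measured, 1 rose, Myc, 1 fell, Hey2, and 11 did not pass (median −0.11), beside 21.2% of all genes called. Hey2, a HEY repressor of heart and artery, was at 7.45, 7.03, 7.21, 7.89 and 7.13 in PTC and at 6.13, 6.58, 5.90, 6.15 and 6.01 in ATC. All ATC tumours were below all PTC tumours, and Hey2 fell by 1.19 (SE 0.17, interval −1.56 to −0.81, 2.28-fold, adjusted p = 0.000802). Its ATC values lay near the lower quartile of the arrays (6.02 to 6.19), so this probe set is dim too and its fold may be compressed. Myc, the growth-promoting transcription factor that Notch drives in T cell leukaemia and that many other pathways also control, rose by 1.35 (SE 0.20, adjusted p = 0.000981). Nrarp, a feedback inhibitor that Notch induces, differed by −0.32 (adjusted p = 0.0703) and passed without ATC replicate 2 (−0.39, adjusted p = 0.0274). Heyl differed by −0.28 (adjusted p = 0.147) and Hes5 by −0.065 (adjusted p = 0.584).

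The genes that modify, cut and degrade the receptors formed 3 lists, whose counts stand beside 21.2% of all genes called. None of 7 sheddase and gamma-secretase genes passed (median −0.013), with Adam10 at −0.013, Adam17 at 0.078 and the nicastrin gene Ncstn at −0.044; limma adjusted p-values were 0.950, 0.718 and 0.872, and 0 of the 7 had an unadjusted p under 0.05. Of 6 glycosylation and maturation genes 1 rose, Lfng, which encodes the Fringe enzyme that extends sugars on the receptor and alters its ligand preference. Lfng rose by 0.36 (SE 0.099, adjusted p = 0.0243), and the call was lost on omitting PTC tumour 2, 3 or 5 (0.31 to 0.35, with adjusted p from 0.0511 to 0.0569). Of 14 ubiquitin ligase and endocytosis genes 1 rose and 2 fell (median −0.060). Dtx4, a Deltex ubiquitin ligase, fell by 0.39 (SE 0.072, adjusted p = 0.00315) with all ATC tumours below all PTC tumours.

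Its paralog Dtx2 rose by 0.28 (adjusted p = 0.0279), and Numb, an endocytic antagonist of Notch, fell by 0.25 (adjusted p = 0.0382). The Dtx2 call was lost on omitting PTC tumour 1, 2, 3 or 4 or ATC tumour 1, 2 or 3 (0.25 to 0.28, with adjusted p from 0.0552 to 0.0735). Numb lost its call when PTC tumour 3, 4 or 5 or ATC tumour 1, 2, 4 or 5 was omitted (−0.26 to −0.22, with adjusted p from 0.0521 to 0.0958), with arrays centred on their medians (−0.21, adjusted p = 0.0872) and in a robust fit with trended variance (−0.25, adjusted p = 0.0603). Of 4 further ligand genes 0 passed by limma and 1 had an unadjusted p under 0.05, Dll3 differing by −0.11 (adjusted p = 0.304) and the atypical ligand gene Dlk1 by −0.83 (adjusted p = 0.138).

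**Figure D3:**
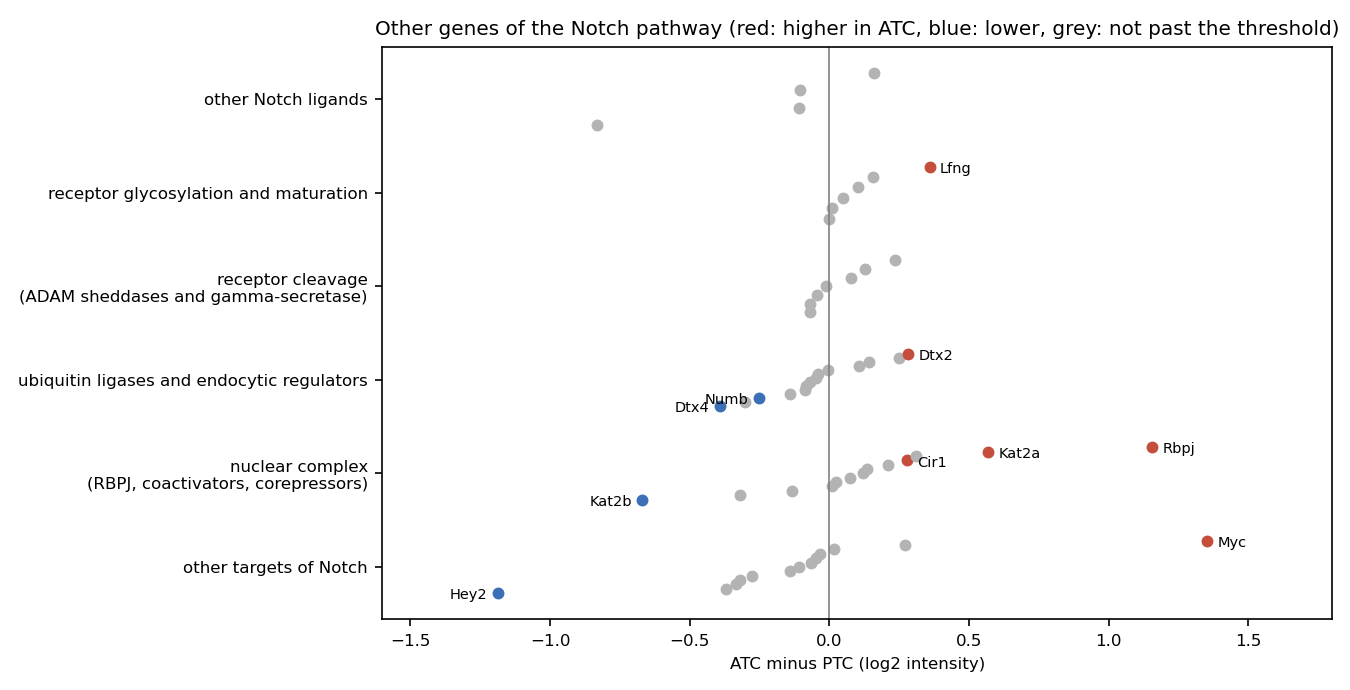
ATC minus PTC difference in log2 intensity (horizontal axis) of the 57 measured pathway genes in 6 lists, 1 point per gene; red points were higher in ATC, blue lower, and grey points did not pass. Rbpj (1.16) and Myc (1.35) stand furthest to the right and Hey2 (−1.19) furthest to the left.

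Markers of cells that make Notch genes differed between the groups as well. Of 12 epithelial markers 10 fell and 0 rose, beside 9.72% of all genes lower and 11.5% higher. The epithelial mean ran from 9.84 to 9.996 in PTC and from 7.56 to 9.06 in ATC. The highest ATC value was that of replicate 2, the tumour with the highest ATC Jag1 and Hes1, and the lowest was that of replicate 1, whose Jag1 (7.86) was the third highest and whose Hes1 (7.85) was the second highest of the ATC tumours. Of 10 macrophage markers 9 rose and 0 fell, with means of 9.15 to 9.72 in PTC and 10.41 to 11.13 in ATC. ATC replicate 3, with the lowest ATC macrophage mean, had the highest Notch2 (10.26) and the lowest Rbpj (10.81) of the ATC tumours. Their part in the differences of Jag1, Hes1, Notch2 and Rbpj was not tested.

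Vascular markers were counted in 3 lists, beside 9.72% of all genes lower and 11.5% higher; the lists were not tested against other genes. Of 17 endothelial markers 2 fell, Pecam1 and Tek, and 0 rose (median −0.20), with means of 7.87 to 8.34 in PTC and 7.71 to 8.001 in ATC. This count hangs on the threshold. Pecam1 passed narrowly (adjusted p = 0.049998), and Kdr (−0.67, adjusted p = 0.0514) and Flt1 (−0.61, adjusted p = 0.0535) narrowly missed it. Of 8 arterial and tip cell markers 2 rose (Efnb2 and Apln) and 1 fell, Gja5, an arterial connexin (−0.66, adjusted p = 0.00504). Of 11 mural markers 2 fell, Myh11 and Mcam, and 0 rose (median −0.17), with means of 8.27 to 8.62 in PTC and 8.04 to 8.49 in ATC. In either direction, 7 endothelial, 6 arterial and tip cell and 5 mural markers had an unadjusted limma p under 0.05. Differences above 0 were seen for 2 of 17 endothelial, 4 of 8 arterial and tip cell and 3 of 11 mural markers. These lists stand beside the differences of Notch3, Notch4, Dll4, Hey1 and Hey2, and their part in them was not tested.

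Among the other lists, 2 of 9 measured thyrocyte and 4 of 9 fibroblast markers fell, beside 9.72% of all genes lower and 11.5% higher. So did 3 of 6 T cell, 1 of 4 B cell and 2 of 4 ciliated cell markers, and 0 rose in these lists. Those that fell were Tshr and Iyd of the thyrocyte list and Dcn, Lum, Fap and Postn of the fibroblast list. The rest were Cd3e, Cd3g and Cd2 of the T cell list, Cd79b, Tekt1 and Rsph1. None of the 2 C cell, 2 parathyroid and 5 skeletal muscle markers passed by limma, and 0 of them had an unadjusted p under 0.05. Their levels were uneven between tumours of a group, with a parathyroid mean of 5.62 to 10.24 in PTC and 5.47 to 9.71 in ATC. ATC replicate 2 had the highest ATC mean of each of these lists (C cell 8.24, parathyroid 9.71, skeletal muscle 8.17). The part of such neighbouring tissue in the Notch gene values was not tested. In either direction, 7 thyrocyte, 5 fibroblast, 3 T cell, 1 B cell and 3 ciliated cell markers had an unadjusted limma p under 0.05. Of the 9 thyrocyte differences 0 were above 0. The thyrocyte mean was 8.58 ± 0.43 in PTC and 7.52 ± 0.64 in ATC.

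**Figure D4:**
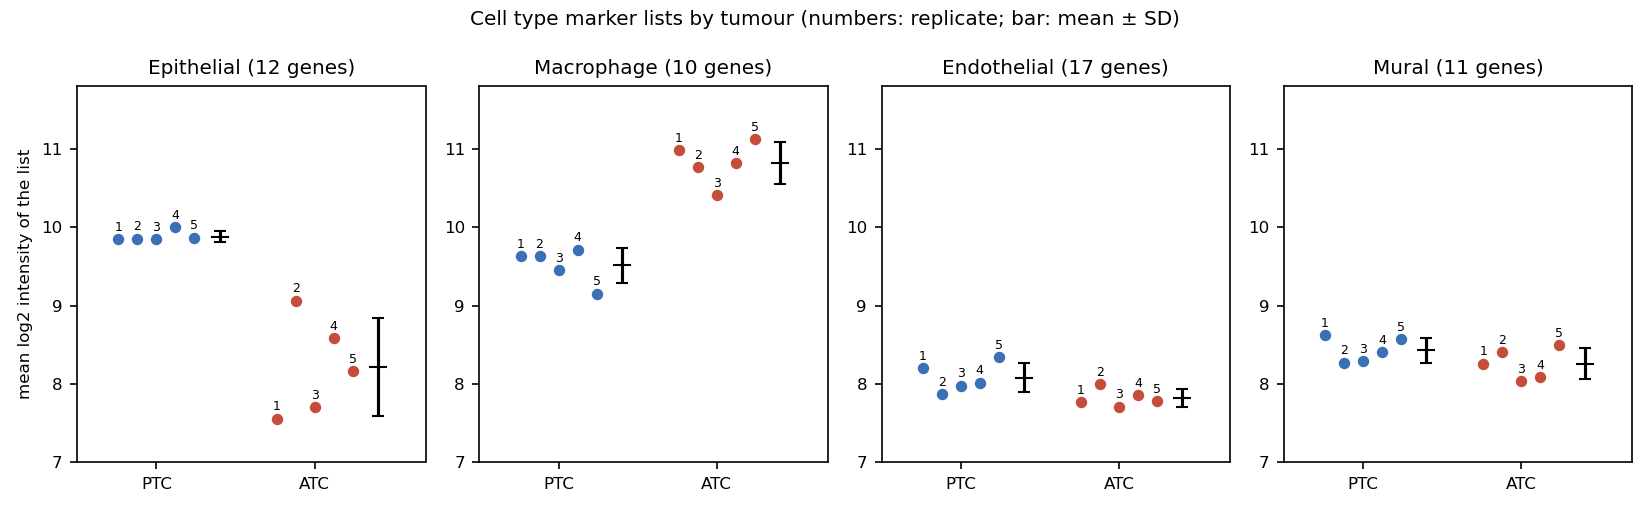
Mean log2 intensity (vertical axis) of 4 cell type marker lists in the 5 PTC (blue) and 5 ATC (red) tumours; each numbered point is a tumour and the bar is the mean ± SD. The epithelial and macrophage means of the groups lie apart, in opposite directions, and the endothelial and mural means overlap.

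The genes most like the 3 members with the largest differences were found by the root mean square distance between profiles over the 10 arrays, each centred on its own mean. Genes with predicted or clone names and Olfr and Vmn receptor genes were left out of this ranking. Nearest to Jag1 were Bcl2l14 (0.14), Nebl (0.15) and Glis3 (0.15). Lix1l (0.079), Mybbp1a (0.14) and Rab34 (0.15) were nearest to Notch2, and Abhd2 (0.098), Mettl26 (0.099) and Mkx (0.11) to Hes1. The distances are in log2 units, beside a root mean square size of the member's own profile of 0.60 for Jag1, 0.51 for Notch2 and 0.38 for Hes1.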

How the data were processed

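Per the labels' protocols, biotin-labelled total RNA of 5 PTC and 5 ATC tumours was measured with the Affymetrix WT system. The deposited values were read as log2 probe set intensities from their range (2.79 to 14.15). For scale, normalization and summarisation the sources used here give no statement. Affymetrix Power Tools and limma are listed in the submitters' processing notes. Array medians were 7.25 to 7.34, and ATC replicate 5 had the widest quartiles (6.02 and 8.72) and the lowest array weight (0.38).

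Of 35556 probe sets, 21789 had 1 gene symbol in the platform annotation, 1621 several and 12146 none here; 21698 matched a gene of GRCm38.p6, whose current symbols were used. The probe set with the highest mean stood for a gene, which left 19938. The groups came from the sample titles. The fit of ATC minus PTC used limma (version 3.58.1, R 4.3.3; lmFit, then eBayes) and had no covariates or filter. Simulated data held 50 genes changed by each of 0.5, 1, 2 and 3 log2 units. The fit recovered 62% of those changed by 0.5 and 94% of those changed by 1. Over all these sets together 185 genes were called, and 4.32% of the calls were false. A far smaller share of genes changed there than was called in the data (21.2%), so these shares need not hold for the fit of the tumours. The members and lists were chosen with earlier results of these data known. Named were all 10 members, up to 6 genes past the threshold in each pathway list, and Rbpj, Dll3, Hey2, Heyl, Nrarp and Hes5; Maml1 to Maml3, the cleavage genes, Dlk1 and the cell type markers were named after their values were seen. Listed genes that matched no such probe set are not analysed here. Alternatives were a replicate block, other choices of probe set, filters on dim genes, other scalings, a variance trend, array weights and each array left out. Tables, motif searches and figures were made in Python 3.11.15 (pandas 2.3.3, numpy 2.4.6, matplotlib 3.10.9).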

Additional observations from a re-analysis of the deposited data

Results flagged for a closer look

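In 5 of 48 groups of 5 tumours checked for the 10 members and 14 named pathway genes, the gap between an end value and its neighbour, divided by the group's range, exceeded 0.71; chance flags about 1 in 20 groups. PTC replicate 5 stood apart for Notch1 (8.20, others 7.46 to 7.64), Notch2 (9.42, others 8.82 to 8.99) and Myc (9.84, others 9.12 to 9.33). Without it Notch2 differed by 0.94 (adjusted p = 0.00512). ATC replicate 5 stood apart for Hey1 (8.11, others 7.34 to 7.47) and ATC replicate 3 for Kat2b (7.80, others 8.55 to 8.70).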

How the results depend on the processing

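Over 20 alternatives Notch2 stayed higher (0.74 to 0.96, adjusted p 0.00221 to 0.0187) and Jag1 (−1.18 to −1.002, 0.000303 to 0.0027) and Hes1 (−0.76 to −0.65, 0.000546 to 0.00706) stayed lower. The number of lower members was 2 instead of 4 with the replicate block, with each array centred on its median and without PTC 5 and ATC 5 together, and 2 to 4 when 1 array was left out. The Notch3 call ended with the block (−0.26, adjusted p = 0.0747), with centring (−0.22, 0.0622) and without both arrays (−0.20); leaving out 1 array gave −0.30 to −0.21. The Dll1 call ended with the block (−0.22, adjusted p = 0.102), quantile normalization (−0.15, 0.107), centring (−0.18, 0.0727), array weights (−0.20, 0.0534) and without both arrays (−0.21). The Dll1 difference ranged from −0.25 to −0.18 with 1 array left out. Among members that did not pass, the sign turned with quantile normalization for Jag2 (0.029) and Dll4 (0.046), with centring for Dll4 (0.027) and Hey1 (0.018), and without both arrays for Jag2 (0.015) and Dll4 (0.016). Leaving out 1 array gave −0.022 to 0.17 for Notch1, −0.039 to 0.044 for Dll4 and −0.16 to 0.043 for Hey1. With the replicate block 3 instead of 6 pathway genes were higher: Lfng (0.36, adjusted p = 0.0547), Dtx2 (0.28, 0.074) and Cir1 (0.28, 0.0893) no longer passed, nor did Numb (−0.25, 0.0663) among the lower ones. Beside the number of genes and arrays entering a fit, the cause was not tested. Same-numbered PTC and ATC tumours deviated with correlations of −0.086 to 0.12 over genes, and 1 of 5 PTC tumours correlated best with its own number. No pairing by number was seen, but so few tumours cannot exclude one. As each member has 1 probe set, no second probe set could be tried. Dim probe sets limit what can be seen for Notch4, Jag2, Dll1, Dll4 and, among named pathway genes, Hey2, Nrarp, Dtx2 and Dll3, which were left out by the filter at the median.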
